A study of Homo sapiens with 12 samples.

Results

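The genes described here encode the proteins of the cytosolic ribosome. They were chosen by symbol: RPL or RPS followed by digits and at most one ending A, X or L, together with RPLP0, RPLP1, RPLP2 and RPSA, without the RPS6K kinases, pseudogenes and mitochondrial ribosomal proteins. Of the 19775 genes with a probe set naming that gene alone, 56 met the rule, 35 of the large and 21 of the small subunit. Where a gene had several such probe sets, the brightest on average stood for it. RPLP0, RPL5, RPL10, RPL13A and RPSA had no such probe set and were not analysed here.

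U937, a human myelomonocytic leukaemia line that is long established, was profiled on 12 Affymetrix U133 Plus 2.0 arrays. The cells carried either an EVI1 expression vector or the empty vector, and each population received TPA at 50 ng/ml or ethanol, its solvent, for 24 h. TPA, a phorbol ester, acts through protein kinase C and pushes these cells toward a macrophage-like state, and EVI1 is a zinc finger transcription factor of the MECOM locus. The 4 groups were therefore empty vector cells in ethanol, empty vector cells in TPA, EVI1-labelled cells in ethanol and EVI1-labelled cells in TPA, with 3 biological replicates each. All groups share the U937 background, a vector and the culture medium. Whether the replicates of a population were transduced separately is not shown, so tests between populations may measure the spread between cultures only. The groups allow TPA to be set against ethanol within a population, the populations to be set against each other within a treatment, and the responses to be compared.

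Cytosolic ribosomes are built in the nucleolus from ribosomal RNA and ribosomal proteins, in nearly equal numbers of each protein. Most ribosomal protein mRNAs are among the most abundant of a dividing cell and begin with a C followed by a run of pyrimidines, the terminal oligopyrimidine tract, through which mTOR signalling and LARP1 control their translation. A few ribosomal proteins have paralogs with restricted expression, such as RPL39L and RPL10L in testis and RPL3L in striated muscle. Ribosome production is high in growing leukaemia cells, and these genes are often used as stable references.

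The deposited values are log2 probe set signals, and a difference below is a difference of log2 values with its standard error (SE), tested with limma over all 19775 genes with Benjamini-Hochberg adjustment at 0.05. Group levels are means ± SD with n = 3, and the number of arrays limits the precision. Arrays of a group correlated at 0.993 to 0.998. The 5 MECOM probe sets read 2.59 to 3.32 on all arrays, so expression of EVI1 is not shown here and that population is called EVI1-labelled. Of 10 myeloid markers 9 were measured, and 7 to 9 of them lay above 5.07, the lowest array median, in each group. Of 5 measured T and B cell markers 2 did so, of 5 measured erythroid and megakaryocyte markers 4, and of 6 epithelial and fibroblast markers 2 or 3. The mean level of a marker list lay at 7.82 to 8.99 for the myeloid list, 4.42 to 4.77 for the lymphoid, 5.58 to 6.05 for the erythroid and megakaryocyte and 4.64 to 4.90 for the epithelial and fibroblast list. Because the RNA comes from whole cultures and 250 ng was labelled for each array, fewer cells of a type and less RNA per cell cannot be told apart.

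Most RefSeq starts of the members carry the tract, and the windows below are given so that members that moved and members that stayed level can be read side by side. RefSeq promoter entries on GRCh38.p14 were matched for 48 of the 56 members. The first transcribed base was a C in 36 of 48 (75%), against 11.7% of 15384 genes with an entry. A C followed by 4 pyrimidines stood there in 33 (68.8%), against 4.5%. A run of at least 8 C or T letters within 5 bases of the start was found in 36 (75%), against 11.3%. The longest run there had a median length of 11 letters against 4. Each line gives 30 bases around the RefSeq start on the gene's own strand, 5′ to 3′. Capitals mark the longest C or T run that reaches within 5 bases of the start, which need not be the nearest.
RPL39, chrX:119791616-119791645, minus strand: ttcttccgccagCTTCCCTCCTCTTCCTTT
RPL35, chr9:124861943-124861972, minus strand: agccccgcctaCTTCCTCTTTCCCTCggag
RPL36, chr19:5690280-5690309, plus strand: ccgcgcggcgccagCCCTTCCgccacggcc
RPL14, chr3:40457324-40457353, plus strand: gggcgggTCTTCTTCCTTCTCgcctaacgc
RPL18, chr19:48619164-48619193, minus strand: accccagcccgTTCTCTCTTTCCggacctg
RPS27, chr1:153990747-153990776, plus strand: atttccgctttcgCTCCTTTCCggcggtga
RPS27L, chr15:63157463-63157492, minus strand: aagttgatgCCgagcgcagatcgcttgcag
RPL10L, chr14:46651767-46651796, minus strand: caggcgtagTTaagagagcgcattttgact
RPS6, chr9:19380222-19380251, minus strand: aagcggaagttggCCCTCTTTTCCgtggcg

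The run was 22 letters long in RPL39, where it goes on past the end of the printed window, 15 in RPL35, 14 in RPL14, 12 in RPL18, 11 in RPS6, 9 in RPS27 and 7 in RPL36, but only 2 in RPS27L and in RPL10L. A paralog pair could be compared in full for RPS27 and RPS27L, where the tract is present in the first and these letters are not in the window of the second. The letters say nothing about use of these starts in U937 cells, which was not measured. In the 250 bases before the start, on both strands, CCGGAAG, an ETS-type motif, was found in 15 of 48 members (31.2%) against 12% of all promoters. GGGCGG, an Sp1-type motif counted on its own as each motif was, was found in 27 (56.2%) against 56.3%, TATAA in 10 (20.8%) against 14.7%, and CACGTG, the E-box bound by MYC, in 2 (4.2%) against 7.8%. The members are spread over 19 chromosomes, with at most 7 on 1 of them, chromosome 19.

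Most members gave very bright and very even signals. The mean over the arrays was above 13 for 47 of 56 on the log2 scale. Saturation of such probe sets was not assessed. The median SD within a group was 0.041 over the 56 members and 0.036 over the 47 bright ones, against 0.131 over all genes. The main fit drew each gene's variance toward 1 value for all genes, whatever their brightness. The median SE of the members was 0.07 for TPA in both populations. Calls under trended and robust moderation, where that value follows brightness, are given beside the main ones. The 6 members with a mean below 10 were the paralogs RPL39L (6.68), RPL10L (5.23) and RPL3L (4.10) and the genes RPL27A (7.76), RPLP2 (5.98) and RPL36A (3.68). For RPL27A, RPLP2 and RPL36A a brighter probe set, with a mean of 13.97, 13.56 and 12.95, named other genes as well and was not used, so their values here are not a measure of the abundant mRNA.

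TPA left the signals of most members nearly level in empty vector cells while changing those of a large share of all genes. Each is the signal of 1 probe set. Of 40 other, dim probe sets of the members 15 were called lower and 3 higher, as given below. RPL39L fell steeply and RPS27L, encoding a small subunit paralog known as a p53 target, rose. Smaller falls were called for 7 members with bright signals or close to them, among them RPL35 and RPL36 of the large subunit. In all, 9 of 56 members passed the test, 1 higher and 8 lower (16.1%), whereas 43.2% of all genes were called, 20.7% higher and 22.5% lower. Trended and robust moderation called 10 members, and the share of all genes under it was not counted. The median difference of the members was -0.05, with 42 negative and 14 positive values, and that of all genes was 0.02. The 95% interval of the difference lay within 0.5 of zero for 50 members and within 0.3 for 42. By subunit, 7 of 35 large subunit members and 2 of 21 small subunit members were called.

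**Figure D1:**
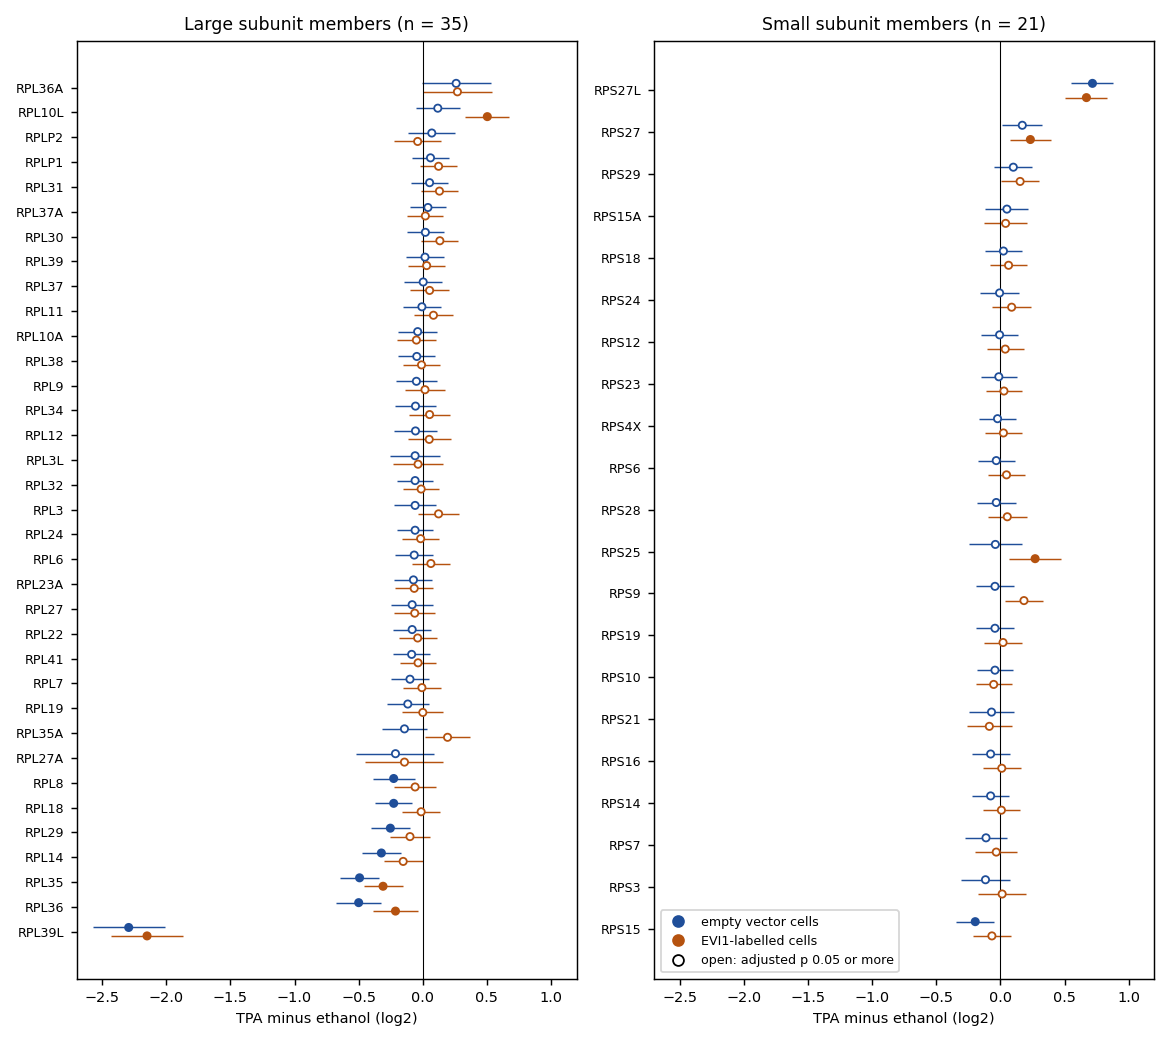
Difference between TPA and ethanol (log2, x axis) with its 95% interval for each of the 56 members, large subunit left and small subunit right, ordered by the value in empty vector cells. Blue points are empty vector cells, orange points EVI1-labelled cells, and filled points had an adjusted p under 0.05 in limma; RPL39L at -2.29 and -2.15 and RPS27L at 0.72 and 0.67 stand apart from a column of values near zero.

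RPL39L encodes a paralog of RPL39, a small protein that lines the exit tunnel of the large subunit. In empty vector cells its signal was 7.80, 7.78 and 7.87 in ethanol and 5.77, 5.38 and 5.42 in TPA. The EVI1-labelled arrays read 7.70, 7.69 and 7.88 in ethanol and 5.90, 5.50 and 5.42 in TPA. All 6 TPA arrays lay far below all 6 ethanol arrays, with no overlap. The difference was -2.29 ± 0.13 (SE, limma adjusted p 3.56e-09) in empty vector cells and -2.15 ± 0.13 (limma adjusted p 8.42e-09) in EVI1-labelled cells. The TPA levels, 5.52 ± 0.21 and 5.61 ± 0.26 (SD, n = 3), are close to the array medians of 5.07 to 5.11. RPL39 itself, at 13.73 ± 0.04 in ethanol and 13.75 ± 0.04 in TPA in empty vector cells, differed by 0.02 ± 0.07 (95% interval -0.13 to 0.16). In EVI1-labelled cells RPL39 differed by 0.03 ± 0.07. The pair thus shows a large fall of the paralog beside a bright gene whose interval excludes a change of that size.

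RPS27L was the member with the largest rise. Empty vector arrays read 11.82, 11.77 and 11.72 in ethanol and 12.55, 12.45 and 12.46 in TPA. EVI1-labelled arrays read 11.94, 11.93 and 11.78 in ethanol and 12.60, 12.56 and 12.50 in TPA. Every TPA array was above every ethanol array in both populations. The rise was 0.72 ± 0.08 (limma adjusted p 2.12e-06) in empty vector cells and 0.67 ± 0.08 (limma adjusted p 4.82e-06) in EVI1-labelled cells. The other probe sets of RPS27L, with means of 7.97 and 7.49, gave rises of 0.61 and 1.08 in empty vector cells and of 0.57 and 1.21 in EVI1-labelled cells, each called when all single-gene probe sets were tested one by one. RPS27, the standard small subunit protein of the pair, carries a zinc finger. It read 13.78, 13.65 and 13.70 in ethanol and 13.92, 13.80 and 13.92 in TPA in empty vector cells, a difference of 0.17 ± 0.07 that missed the threshold (limma adjusted p 0.0778). In EVI1-labelled cells it went from 13.78, 13.79 and 13.73 to 14.01, 13.97 and 14.02, a rise of 0.23 ± 0.07 (limma adjusted p 0.0187). The groups did not overlap in either population. Without the third EVI1-labelled ethanol array or the first EVI1-labelled TPA array the adjusted p of RPS27 was above 0.05, at most 0.0643, and with the mean of its probe sets its difference was negative. Neither gene of the remaining pair was called: RPL3, of the peptidyl transferase region, differed by -0.06 ± 0.075 and 0.12 ± 0.075, and its muscle paralog RPL3L, at 4.06 to 4.13 in the group means and so under the array medians, by -0.06 ± 0.09 and -0.04 ± 0.09.

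**Figure D2:**
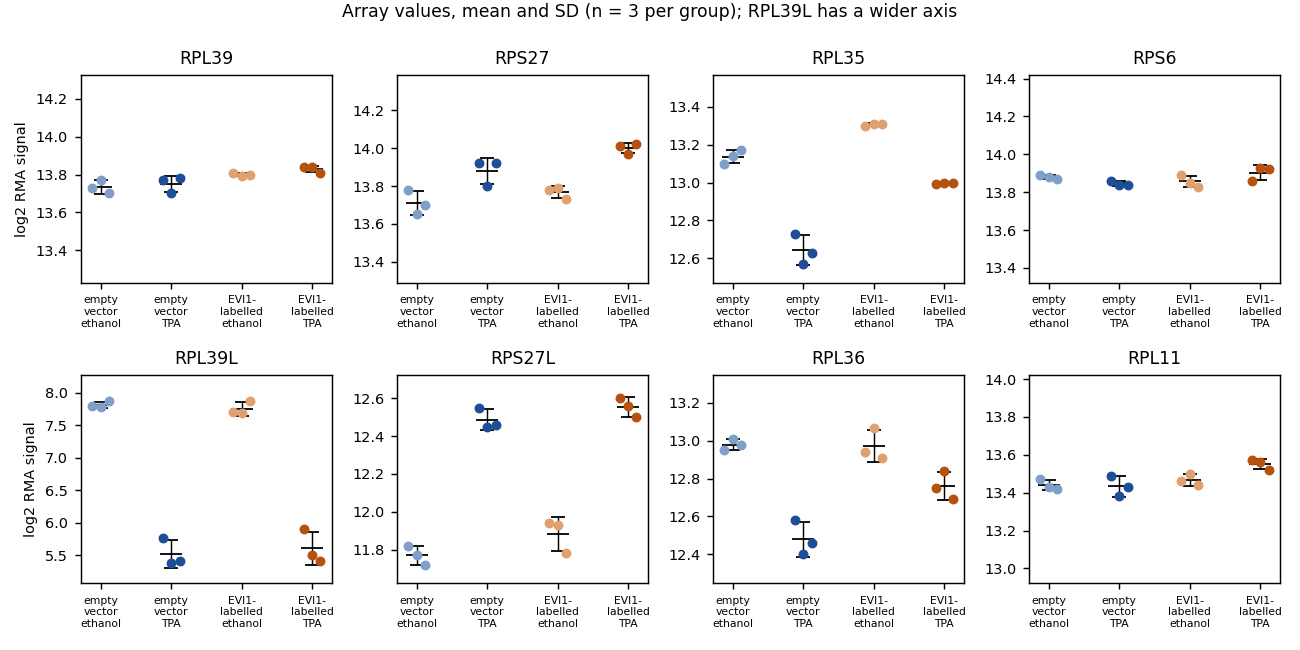
Log2 signal (y axis) of 8 members on each array, by group, with the group mean and SD (n = 3). Each panel spans the same height except RPL39L, whose axis is wider; RPL39L drops to 5.38 to 5.90 in TPA while RPL39 stays at 13.70 to 13.84 in all groups, and RPS27L rises in both populations.

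Among the abundant members the clearest falls were those of RPL35 and RPL36. RPL35 sits near the mouth of the exit tunnel, and RPL36 is another protein of the large subunit. RPL35 read 13.10, 13.14 and 13.17 in ethanol and 12.73, 12.57 and 12.63 in TPA in empty vector cells, and 13.30, 13.31 and 13.31 against 12.99, 13 and 13 in EVI1-labelled cells. The treatments did not overlap in either population, and RPL35 differed by -0.49 ± 0.07 (limma adjusted p 3.96e-05) and -0.31 ± 0.07 (limma adjusted p 0.00237). RPL36 read 12.95, 13.01 and 12.98 in ethanol and 12.58, 12.40 and 12.46 in TPA in empty vector cells, a difference of -0.50 ± 0.08 (limma adjusted p 0.000116). In EVI1-labelled cells the RPL36 values were 12.94, 13.07 and 12.91 in ethanol and 12.75, 12.84 and 12.69 in TPA. That difference of -0.21 ± 0.08 was at the threshold (limma adjusted p 0.0486) and lost its call in 13 of 22 alternative settings, 9 of them arrays left out, with a highest adjusted p of 0.193.

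The remaining falls in empty vector cells were smaller. RPL14 went from 13.87 ± 0.01 to 13.54 ± 0.06, a difference of -0.32 ± 0.07 (limma adjusted p 0.00154), and RPL29, also known as a heparin-binding protein, from 13.57 ± 0.01 to 13.31 ± 0.09, a difference of -0.25 ± 0.07 (limma adjusted p 0.00972). RPL18 went from 13.62 ± 0.01 to 13.39 ± 0.04, a difference of -0.23 ± 0.07 (limma adjusted p 0.0133). In these 3 genes no TPA array reached an ethanol array. RPL8, a protein of the peptidyl transferase region, differed by -0.23 ± 0.08 (limma adjusted p 0.027), and RPS15, in the head of the small subunit, by -0.20 ± 0.07 (limma adjusted p 0.0304). Both calls are fragile. RPS15 lost its call without any 1 of the 6 empty vector arrays, with an adjusted p of up to 0.0812, and RPL8 without the third ethanol array or the second or the third TPA array, with one of up to 0.104. Both were also lost with arrays centred on bright genes outside the rule and with the 2 groups fitted alone, where the limma adjusted p of RPS15 reached 0.0901.

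The members with the smallest differences in empty vector cells were RPL37, RPL11, RPS12, RPS24 and RPS23, between -0.01 and 0.00, each with an SE of 0.07. RPL11, a large subunit protein that also binds MDM2, read 13.47, 13.43 and 13.42 in ethanol and 13.49, 13.38 and 13.43 in TPA. RPS6, the ribosomal target of the S6 kinases, read 13.89, 13.88 and 13.87 in ethanol and 13.86, 13.84 and 13.84 in TPA, which is -0.03 ± 0.07. The treatments overlapped for RPL11, and for RPS6 they did not overlap although their means lay 0.03 apart. For the 41 bright members that were not called, the 95% intervals spanned -0.31 to 0.33. Each is the interval of 1 probe set, for members picked because they were not called, so the span is no joint bound. Dim probe sets of some of these genes, among them RPL37, fell by more, as given below. Wider intervals belonged to members with dim probe sets, which do not measure the abundant mRNA: RPL36A differed by 0.26 ± 0.125 (95% interval -0.01 to 0.53) and RPL27A by -0.21 ± 0.14 (95% interval -0.52 to 0.09), and neither was called.

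The count of called members can be set beside that of other bright genes. Outside the rule 56 genes also had a mean above 13, and 37 of them (66.1%) were called for TPA in empty vector cells, against 6 of the 47 bright members (12.8%). The median size of a difference was 0.06 for the bright members and 0.27 for the bright genes outside the rule. The sets are not matched in brightness: the mean levels ran from 13.02 to 14.41 with a median of 13.82 in the members and from 13.01 to 14.38 with a median of 13.37 in the other genes, and the part of this in the counts was not tested. The arrays of a group did not overlap between treatments in 25 of 56 members, against 50.3% of all genes.

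**Figure D3:**
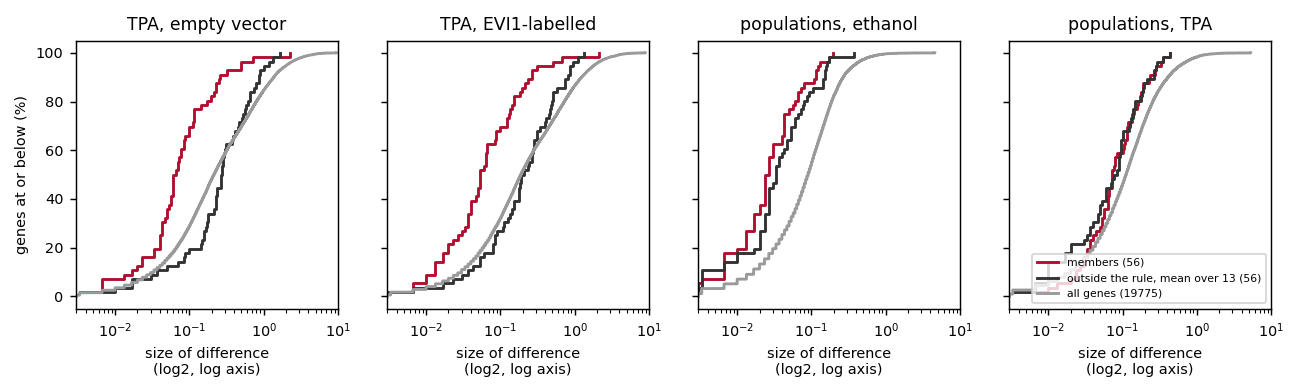
Cumulative share of genes (y axis, percent) with a difference at or below a given size (x axis, absolute log2 difference on a log axis) in 4 comparisons, for the 56 members, the 56 genes outside the rule with a mean above 13, and all 19775 genes. In both TPA comparisons the members' line lies left of the others over most of its length, apart from the smallest sizes and from RPL39L at the right end; between the populations in TPA it follows that of the other bright genes.

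In EVI1-labelled cells TPA again left the signals of most members level, and the calls fell on both sides. RPL39L, RPL35 and RPL36 fell, and RPS27L, RPL10L, RPS25 and RPS27 rose. In all 7 of 56 members (12.5%) were called, 4 higher and 3 lower, where 40.0% of all genes were called, 19.4% higher and 20.6% lower. This count depends on the moderation: the trended and robust form called 14 members. The share of all genes called under that form was not counted. The median difference of the members was 0.02, with 23 negative and 32 positive values, beside 0.00 for all genes. RPL10L, the testis paralog of RPL10, read 5.02, 5.13 and 5.13 in ethanol and 5.52, 5.65 and 5.62 in TPA, a rise of 0.50 ± 0.08 (limma adjusted p 0.000115). Its ethanol levels lie at the array medians and are not shown to be above background. RPS25, a small subunit protein needed for initiation at some internal ribosome entry sites, read 13.05, 13.07 and 12.84 in ethanol and 13.30, 13.26 and 13.21 in TPA. That rise of 0.27 ± 0.095 (limma adjusted p 0.0355) was lost without the third ethanol array or the first or second TPA array, with an adjusted p of up to 0.162. The call was also lost with array medians centred and with quantile normalization.

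The 5 smallest differences in EVI1-labelled cells were those of RPL19, RPL7, RPS14, RPL38 and RPS16, from -0.01 to 0.01. Of the 47 bright members 3 were called (6.38%), against 29 of the 56 bright genes outside the rule (51.8%). For the 44 bright members that were not called, the 95% intervals spanned -0.31 to 0.33. No overlap between treatments was seen in 23 of 56 members, against 46.6% of all genes. Without the third EVI1-labelled ethanol array or the first EVI1-labelled TPA array the count of called members was 4 instead of 7.

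The control probe sets of ACTB differed by treatment beside these results. The signal of the 3′ probe set exceeded that of the 5′ one by 1.31 ± 0.17 (SD, n = 6) in TPA and 1.85 ± 0.13 (SD, n = 6) in ethanol (two-sided exact permutation test over arrays, p 0.00216). For GAPDH the gaps were 0.40 ± 0.11 and 0.57 ± 0.15 (two-sided exact permutation p 0.0476). The mean level of the myeloid markers also moved, from 8.74 to 8.99 and 8.66 to 8.79 in ethanol to 8.27 to 8.49 and 7.82 to 8.21 in TPA, empty vector cells first. Single markers went both ways. Of the 9 measured, 3 were called higher and 6 lower with TPA in empty vector cells, with differences from -3.12 to 3.33. In EVI1-labelled cells 3 were higher and 5 lower, from -3.56 to 2.99. The part of these shifts in the member results was not tested.

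The result depends on which probe set stands for a gene. The members had 117 single-gene probe sets, and 34 members had more than 1. Of the 61 not used above, 40 had a mean below 10 and belonged to 27 genes. In empty vector cells 15 of these 40 dim probe sets, from 12 genes, were called lower with TPA and 3 higher, where 17.4% and 16.9% of all such dim, lesser probe sets were called. In EVI1-labelled cells 11 were lower and 2 higher, beside 15.8% and 15.1%. The median over the 40 was -0.23 and -0.18. Over all 41097 single-gene probe sets, 19.9% were called lower and 18.6% higher in empty vector cells, and 18.1% and 17.1% in EVI1-labelled cells. Of the 17 lesser member probe sets with a mean above 13, 2 were called in empty vector cells, for RPL14 at -0.32 and RPL29 at -0.22, and 0 in EVI1-labelled cells.

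RPL37, a zinc-binding protein of the large subunit, shows the contrast most fully. Its bright probe set, mean 13.92, differed by 0.00 ± 0.07 between TPA and ethanol in empty vector cells. Its 3 dim probe sets, with means of 8.31, 7.84 and 6.39, differed by -0.86 ± 0.14, -0.60 ± 0.095 and -1.17 ± 0.25 (limma adjusted p 0.000116, 0.000121 and 0.00167 over 41097 probe sets). In EVI1-labelled cells the differences were -0.59, -0.33 and -1.10, all called. Dim probe sets of RPS15, RPS16, RPL37A and RPS21 also fell in both populations, with differences of -0.76, -0.67, -0.70 and -0.66 in empty vector cells. A dim probe set of RPS6, mean 4.42, was 1.00 ± 0.32 higher in empty vector cells (limma adjusted p 0.0241). Where the transcripts behind these probe sets lie in the genes was not examined. No gene had its bright probe set and another called in opposite directions.

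Between the populations in ethanol no member was called, where 3.27% of all genes were. Of the 56 members 1, RPL35, had an unadjusted p under 0.05 in limma, and so did 2506 of all 19775 genes. RPL35 differed by 0.17 ± 0.07 (limma adjusted p 0.309), and its arrays did not overlap: 13.30, 13.31 and 13.31 in EVI1-labelled cells against 13.10, 13.14 and 13.17. The median difference of the members was 0.02 and that of all genes 0.01. The 95% intervals of the 47 bright members spanned -0.40 to 0.32. Groups without overlap were found in 8 members, against 22.0% of all genes.

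In TPA the EVI1-labelled cells had slightly higher signals for most members. The difference was positive for 50 of 56 and negative for 6, all 21 small subunit members being positive, with a median of 0.07 beside 0.01 for all genes. In 31 members the groups did not overlap, each time with EVI1-labelled cells higher, where 22.4% of all genes did not overlap in either direction. The test called 6 members (10.7%), all higher, where 11.2% of all genes were called, 5.9% higher and 5.3% lower. In this fit the share of calls is therefore near that of all genes, while the sizes are small. Trended and robust moderation called 13 members instead of 6, and the share of all genes under it was not counted. Among bright genes outside the rule 29 of 56 were positive and 11 of 56 did not overlap, and among the bright members 44 and 28 of 47.

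The called members in TPA were RPL10L, RPL35, RPL35A, RPL36, RPS9 and RPL18. RPL35 was 0.35 ± 0.07 higher (limma adjusted p 0.00478), at 12.99, 13 and 13 against 12.73, 12.57 and 12.63. RPL35A, whose gene is mutated in some patients with Diamond-Blackfan anaemia, read 13, 13.10 and 12.96 against 12.83, 12.62 and 12.62, a difference of 0.33 ± 0.08 (limma adjusted p 0.0167). RPL10L read 5.52, 5.65 and 5.62 against 5.16, 5.06 and 5.28, near the array medians, a difference of 0.43 ± 0.08 (limma adjusted p 0.00293). In none of these genes did a value of one population reach the other. RPS9, a protein of the small subunit body, read 13.24, 13.29 and 13.29 against 13.09, 12.95 and 12.97, which is 0.27 ± 0.07 (limma adjusted p 0.0231). RPL36 differed by 0.28 ± 0.08 (limma adjusted p 0.0383) and RPL18 by 0.23 ± 0.07 (limma adjusted p 0.0427). RPL18 lost its call with each of the 12 arrays left out and in 16 of 22 alternative settings, with an adjusted p of up to 0.221. RPL36 lost its call with 7 of the arrays left out and in 11 of 22 settings, with one of up to 0.157. RPL35A and RPS9 each lost theirs in 5 of 22 settings, 3 of them arrays left out, with adjusted p-values of up to 0.254 and 0.139. RPL3, at 0.23 ± 0.075, was not called (limma adjusted p 0.064), and its dim paralog RPL3L differed by 0.03 ± 0.09.

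The calls in TPA rest in part on single arrays, while the median of the members stayed between 0.06 and 0.09 with any 1 array left out. Relative to each gene's mean over the 12 arrays, the 47 bright members had a median deviation of -0.05 on each of the second and the third empty vector TPA arrays and -0.01 on the first. Only 2 and 8 of 47 members were above their own mean on these 2 arrays, and 20 on the first. On the EVI1-labelled TPA arrays the medians were 0.03, 0.05 and 0.03, with 37, 38 and 28 members above their mean, and on the 6 ethanol arrays the medians lay between 0.00 and 0.02. Without the second or the third empty vector TPA array, or the second EVI1-labelled TPA array, 2 members were called instead of 6, and with each of the 12 arrays left out RPL10L and RPL35 kept their calls. Fitted on the 6 arrays of these groups alone, 1 member was called, RPL10L. With each array centred on bright genes outside the rule, the median difference was 0.05 and 4 members were called.

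**Figure D4:**
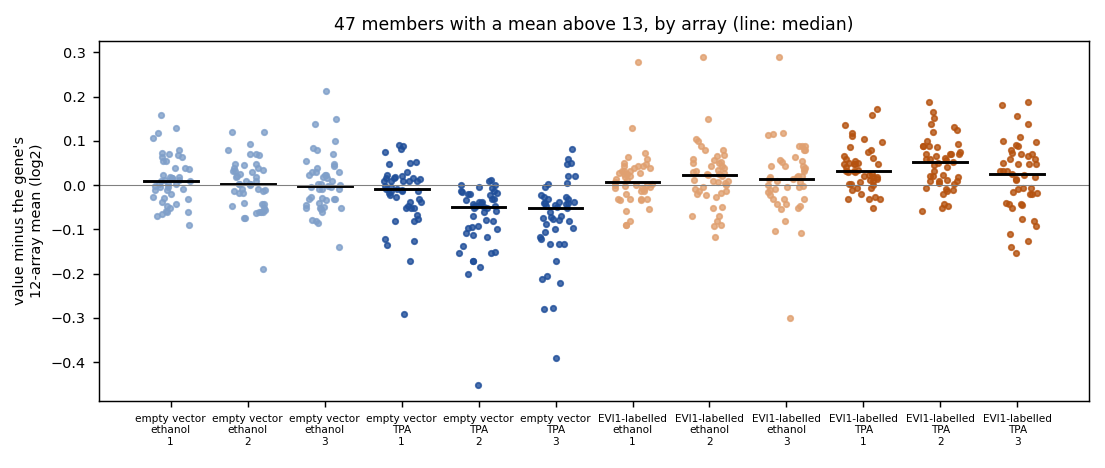
Value minus the gene's mean over 12 arrays (y axis, log2) for the 47 members with a mean above 13, one column per array, with the median as a line. The second and the third empty vector TPA arrays have medians of -0.05, and the 3 EVI1-labelled TPA arrays medians of 0.03 to 0.05.

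No member was called for a difference in TPA response between the populations, where 1.98% of all genes were. The difference was positive for 49 of 56 members, with a median of 0.07, and for 10089 of all 19775 genes, with a median of 0.01. This comparison shares its TPA arrays with the one above. In limma 6 of 56 members had an unadjusted p under 0.05, and so did 2481 of all 19775 genes. These members were RPL10L at 0.39 ± 0.11 (limma adjusted p 0.118), RPL35A at 0.34 ± 0.11 (0.198), RPS25 at 0.31 ± 0.13 (0.35), RPL36 at 0.29 ± 0.11 (0.29), RPS9 at 0.23 ± 0.10 (0.357) and RPL18 at 0.21 ± 0.10 (0.371). For RPL39L the difference in response was 0.14 ± 0.18 (95% interval -0.25 to 0.54), and for RPS27L it was -0.05 ± 0.11 (95% interval -0.28 to 0.19). The intervals of the 47 bright members spanned -0.26 to 0.60.

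In both populations the median TPA difference of each list of genes around the ribosome lay below that of the members. The lists were not matched to the members in brightness, and the part of that was not tested. The lists were counted in the same fits and can be read beside the shares called of all genes given above. Of 5 further genes for ribosomal proteins or their paralogs outside the symbol rule 0 rose and 3 fell in empty vector cells, with a median of -0.26. They were RPL22L1, a paralog of RPL22, at -1.19 ± 0.10, RPL7L1, a paralog of RPL7, at -0.60 ± 0.07, and FAU, which encodes a small subunit protein fused to a ubiquitin-like domain, at -0.26 ± 0.07 (limma adjusted p 2.32e-07, 8.24e-06 and 0.00902). In EVI1-labelled cells 2 fell, RPL22L1 at -1.06 and RPL7L1 at -0.59, while FAU at -0.11 was not called. The parent gene RPL22, a member, was not called in either population.

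Translation factors and other genes known for the same terminal tract had 21 measured entries. In empty vector cells 1 rose and 11 fell, with a median of -0.27, and in EVI1-labelled cells 5 rose and 5 fell, with a median of -0.08. VIM, an intermediate filament gene and no translation factor, rose by 2.69 ± 0.14 and 2.18 ± 0.14. HNRNPA1, a splicing regulator, differed by -0.75 ± 0.09 and -0.83 ± 0.09, and CNBP, a nucleic acid binding protein, by -0.62 ± 0.08 and -0.53 ± 0.08 in the same order. Between the populations in TPA, 3 initiation factor genes were higher in EVI1-labelled cells: EIF3H at 0.59 ± 0.08, EIF3K at 0.50 ± 0.08 and EIF3F at 0.33 ± 0.08 (limma adjusted p 0.000371, 0.000719 and 0.0142). EIF3H was also 0.43 ± 0.08 higher in ethanol (limma adjusted p 0.00956).

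Chaperones and late assembly factors, which escort ribosomal proteins and mature the subunits, fell broadly. Of 19 measured, 15 fell and 3 rose in empty vector cells, with a median of -0.91, and 15 fell and 1 rose in EVI1-labelled cells, with a median of -0.85. TSR1, of small subunit maturation, differed by -1.98 ± 0.13 (limma adjusted p 1.47e-08) and PRMT3, a methyltransferase of a ribosomal protein, by -1.79 ± 0.10 (limma adjusted p 4.64e-09) in empty vector cells. The largest rises there were RPS19BP1 at 0.52 ± 0.08 and EFL1, the GTPase that releases EIF6 from the large subunit, at 0.44 ± 0.08. In EVI1-labelled cells the largest falls were MRTO4 at -1.79 ± 0.10 and TSR1 at -1.70 ± 0.13, and RPS19BP1 rose by 0.32 ± 0.08. Between the populations in TPA, PDCD2L was higher in EVI1-labelled cells at 0.53 ± 0.085, and EFL1 at -0.44 ± 0.08 and NMD3 at -0.33 ± 0.07 were lower (limma adjusted p 0.00102, 0.003 and 0.00772).

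Regulators of ribosomal protein mRNA had 18 measured entries, of which 10 fell and 2 rose in empty vector cells (median -0.35) and 9 fell and 2 rose in EVI1-labelled cells (median -0.22). MYC, a transcription factor that drives ribosome production, went from 12.21 ± 0.05 to 9.36 ± 0.11 in empty vector cells and from 12.14 ± 0.07 to 9.56 ± 0.15 in EVI1-labelled cells, differences of -2.86 ± 0.09 and -2.58 ± 0.09 (limma adjusted p 1.7e-11 and 6.13e-11). EIF4EBP1, which sequesters the cap-binding protein EIF4E, differed by -1.49 ± 0.10 and -1.78 ± 0.10, both called. EIF4E rose by 0.45 ± 0.09 in empty vector cells, and RPS6KB2, an S6 kinase, by 0.37 ± 0.10 and 0.63 ± 0.10. Between populations EIF4EBP1 was lower in EVI1-labelled cells, at -1.06 ± 0.10 in ethanol and -1.34 ± 0.10 in TPA (limma adjusted p 5.33e-05 and 3.14e-06). It was the one regulator called in ethanol. In TPA, EIF4E was also lower, at -0.36 ± 0.085, and 2 regulators were higher, GABPA, a subunit of an ETS-family factor, at 0.64 ± 0.14 and RPS6KB1, an S6 kinase, at 0.29 ± 0.09 (limma adjusted p 0.014, 0.00788 and 0.0491).

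The proteins of the mitochondrial ribosome, which translates the mitochondrial genome, mostly fell. Of 75 mitochondrial ribosomal protein genes 66 fell and 2 rose with TPA in empty vector cells, with a median of -0.68, and 62 fell and 3 rose in EVI1-labelled cells, with a median of -0.55. MRPL12 differed by -1.89 ± 0.09 and MRPS26 by -1.79 ± 0.09 in empty vector cells, while MRPL52 rose by 2.00 ± 0.08 and MRPL33 by 0.38 ± 0.10. In EVI1-labelled cells MRPS2 differed by -1.77 ± 0.10 and MRPS26 by -1.63 ± 0.09, and MRPL52 rose by 2.23 ± 0.08 and MRPL33 by 0.61 ± 0.10. These genes gave dimmer signals than the 47 bright cytosolic members, so the lists differ in brightness as well as in the compartment, and the part of brightness was not tested.

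**Figure D5:**
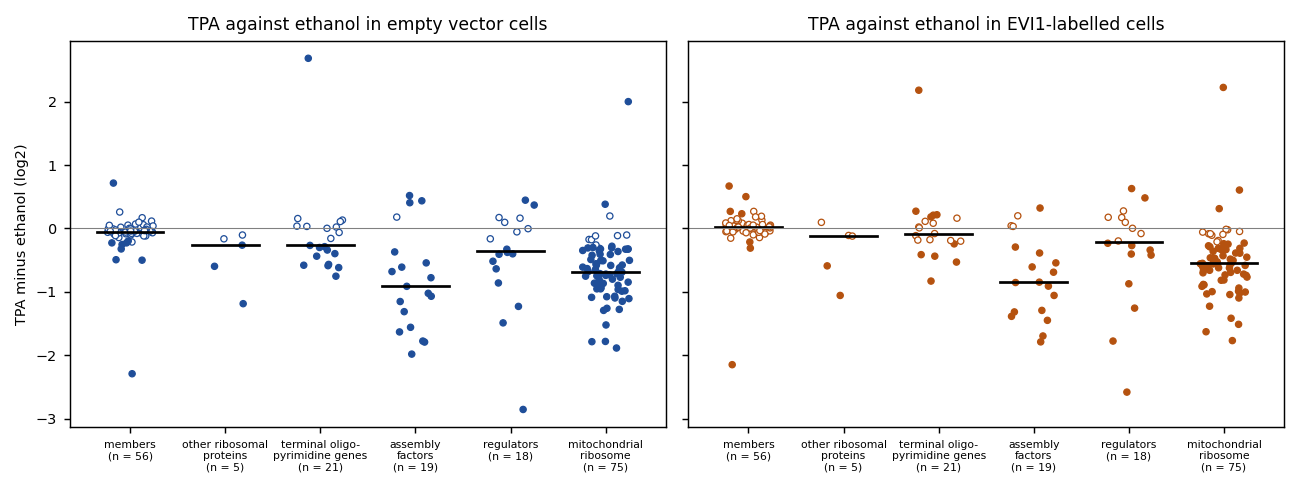
Difference between TPA and ethanol (log2, y axis) of each gene in the members and 5 related lists, in empty vector cells (left) and EVI1-labelled cells (right), with the list median as a line and filled points for an adjusted p under 0.05 in limma. The members' medians are -0.05 and 0.02, and those of the mitochondrial ribosome -0.68 and -0.55.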

How the data were processed

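For each of the 12 arrays 250 ng of U937 RNA was labelled with a 3′ kit, per the labels' protocols. The deposited values are log2 signals, summarised by RMA according to the authors; the submitters' processing notes name Expression Console 1.3 of Affymetrix. RMA gives all arrays one distribution, which hides any change shared by most genes. Of 54675 probe sets 41097 named 1 gene and were used, 1801 named several and 11777 none. A gene with several took the one of highest mean, and 15 members rest on a probe set with the suffix _x_at, whose probes can match other transcripts.

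Groups were compared with limma 3.58.1 in R 4.3.3: all 12 arrays entered 1 fit with a mean for each group, variances were moderated (degrees of freedom: 8 residual, 5.22 prior), and two-sided p-values were adjusted over 19775 genes by Benjamini-Hochberg, with calls at 0.05. The scripts were tested on simulated data. Named members were up to 8 called rises and 8 called falls per comparison, the measured paralog pairs, the 5 smallest TPA differences per population, and RPL11 and RPS6 as reference or signalling genes. RPL37, RPS21, RPS16, RPL37A and RPS15 were named for their dim probe sets, and RPL22 beside its paralog, after their values were seen. From each related list up to 2 rises and 2 falls were named per comparison, with EIF3H, EIF3K and EIF3F as the whole of their calls; FAU was added as a whole count of 3. Members and lists were chosen with earlier results of these data known.

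Replicate numbers are shared between groups. After group means were subtracted, arrays 1, 2 and 3 of empty vector cells in TPA correlated with their namesakes of EVI1-labelled cells in TPA at 0.415, 0.13 and 0.151, above 0.1 for each number, and in no other pair of groups for all 3. Each empty vector ethanol array also correlated most with its namesake in empty vector TPA (0.157, 0.105 and 0.079). The same held toward EVI1-labelled ethanol (0.176, 0.143 and 0.075). Each EVI1-labelled ethanol array did so toward EVI1-labelled TPA (0.145, 0.091 and 0.208). By the cutoff of 0.1, pairing was taken to hold for the comparison between populations in TPA only, from the data. The main fit did not use it. The replicate block, left-out arrays, other probe set choices, filters, scalings and fits were tried as alternatives.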

Additional observations from a re-analysis of the deposited data

How the results depend on the processing

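With the replicate number as a block, the members called were 9 and 6 for TPA in empty vector and EVI1-labelled cells, 0 and 6 between populations in ethanol and in TPA, and 0 for the difference in response. The pairing changed 1 call, that of RPL36 in EVI1-labelled cells, which was lost. Over the 12 fits that leave out 1 array, the counts ranged from 7 to 9, 4 to 8, 0 to 0, 2 to 5 and 0 to 0 in that order, and the medians from -0.07 to -0.04, 0.01 to 0.03, 0.01 to 0.02, 0.06 to 0.09 and 0.06 to 0.09. With the mean of a gene's probe sets, 15 members were called for TPA in empty vector cells, 14 of them lower, all 9 of the main calls included. RPL37 was then at -0.66 (limma adjusted p 0.000253), because its dim probe sets enter the mean, RPS27 in EVI1-labelled cells turned to -0.13 (limma adjusted p 0.474), and the median in EVI1-labelled cells was -0.01. Leaving out genes below the median mean gave 11 calls for TPA in EVI1-labelled cells, with fewer genes tested. Trended and robust moderation gave 14 there and 13 between populations in TPA, where the 2 groups alone gave 1. The cause was not tested, and the share of all genes called was not counted under the alternatives. The counts under the other alternatives were within 1.5 times the main ones, and the medians of the members kept their sign under all alternatives but the one named. Admitting probe sets that also name snoRNA or miRNA genes, chosen after the data were seen, gave 68 members and 11, 9, 0, 7 and 0 calls.

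No detection call was used, so levels near the array medians are not shown to be above background. Saturation of bright probe sets was not assessed. The values bear on RNA levels relative to the other RNA of the culture, and translation was not measured.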
